A study of Rattus norvegicus with 6 samples.

Results

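Single, stand-alone sites at which all 3 SYNCRIP libraries had a peak on a nuclear chromosome are described here. "Nuclear" refers to the chromosome that encodes the RNA, not to the compartment, since the RNA was cytoplasmic. A region was formed wherever same-strand peaks of the 3 peak lists overlapped by at least 1 bp, after the mitochondrial peaks had been removed. A region was kept as a site when it held a peak of each list and when no other region of its strand lay within 200 nt on either side. Of 6908 nuclear regions, 305 met both conditions. The peak lists thus chose the sites. Presence in all 3 lists, the distance to neighbours and every contrast set by them are given as descriptions with no test.

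The libraries came from individual-nucleotide resolution crosslinking and immunoprecipitation (iCLIP), in which ultraviolet light fixes proteins to the RNA they touch and an antibody then recovers one protein with its RNA. Sprague-Dawley rat cortical neurons were taken at day 6 in vitro and crosslinked on 10 cm plates with a UV-C dose of 300 mJ/cm2. The 3 SYNCRIP libraries were made with the anti-hnRNPQ antibody clone 18E4, and 3 further libraries with an IgG1 isotype control, which were not analysed here. The submitters call the 3 replicates biological, and how many animals or cultures stand behind each is not given in the sources used here. No defining marker of neurons or glia could be looked up in peak lists without gene names, so the labelled cell type was not checked.

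SYNCRIP belongs to the hnRNP proteins, a large family that binds RNA in the nucleus and beyond it, and is also known as hnRNP Q. It is found in the cytoplasm as well as in the nucleus, and in neurons it is known as a component of RNA granules that carry messenger RNAs into dendrites. It has been tied to the stability, transport and translation of messenger RNAs. An RNA-binding protein can contact a transcript at many points along a stretch or at a single place, and the sites described here are those that stand alone in the peak lists. Neither genes nor sequences are given for the sites, because no genome or annotation of build rn6 was used here. Positions are 1-based on rn6.

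The lists held 5596, 4079 and 2659 nuclear peaks in replicates 1, 2 and 3, on a common grid of bins 20 nt wide. The score is a whole number of unknown meaning whose lowest value was 32, 26 and 20 in the 3 lists, and it was compared only within a list. For that comparison each score was turned into its percentile among all peaks of its list, or into a multiple of the lowest score of the list. Sequencing depth is unknown. Site numbers below follow the mean of the 3 percentiles, from site 1, the highest, to site 305.

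Isolated regions were mostly seen in 1 library. Of the 2038 isolated nuclear regions, 305 (15.0%, 95% Wilson interval 13.5 to 16.6) had a peak in all 3 lists. The share was 24.6% over all nuclear regions and 28.6% among regions with a neighbour within 200 nt. These shares restate the conditions under which the sites were chosen. Replicate 1 alone supplied 865 isolated regions, replicate 2 alone 292 and replicate 3 alone 105. Replicates 1 and 2 shared a further 373, replicates 1 and 3 shared 70, and replicates 2 and 3 shared 28. Without replicate 3, the shortest list, 707 regions were isolated and shared by both remaining lists. Of the 305 sites, 187 had no neighbour within 1000 nt.

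The sites ranked above most peaks of the longest list and near the middle of the shortest. The median percentile was 83.2 in replicate 1, 72.5 in replicate 2 and 51.1 in replicate 3. In scores, the medians were 71, 46 and 27, or 2.22, 1.77 and 1.35 times the lowest score of the respective list. The middle 50% of sites spanned percentiles 62.5 to 94.0 in replicate 1, 48.0 to 90.9 in replicate 2 and 29.3 to 80.2 in replicate 3. Regions in all 3 lists with a neighbour within 200 nt followed the same order. Their median percentiles were 81.1, 74.0 and 62.3 in replicates 1, 2 and 3. The curves of score position show the 3 lists apart over most of their range, with replicate 3 closest to the line of all peaks. The lists differ in length in the same order, and the part of list length in this spread was not tested.

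**Figure D1:**
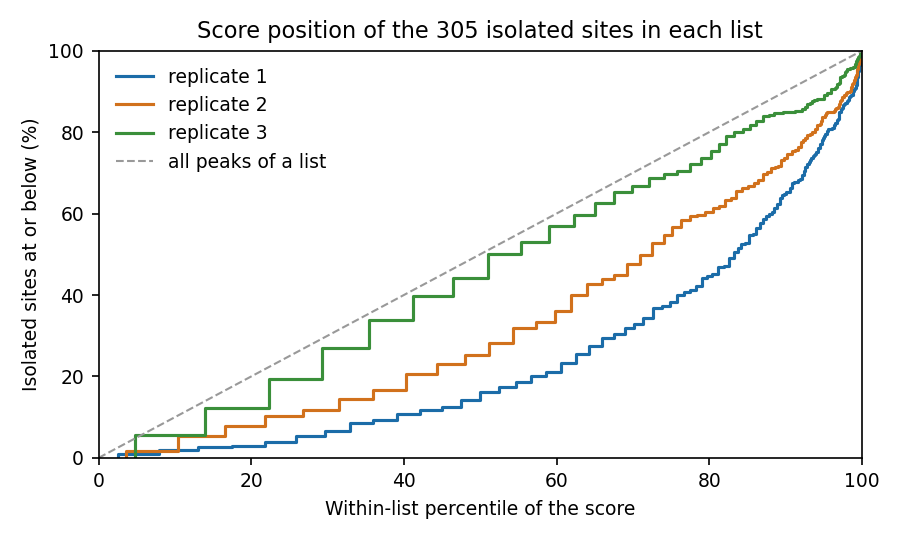
Cumulative share of the 305 isolated sites (vertical axis, %) at or below each within-list percentile of the score (horizontal axis), with a line for each replicate and a dashed line for all peaks of a list. The medians fall at 83.2, 72.5 and 51.1 in replicates 1, 2 and 3.

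Many sites stood close to the lowest deposited score, mainly in replicate 3. There, 17 sites (5.57%) had exactly the lowest score of the list, against 5 (1.64%) in replicate 2 and 3 (0.984%) in replicate 1. Scores under 1.5 times the lowest were held by 174 sites (57.0%) in replicate 3, 102 (33.4%) in replicate 2 and 57 (18.7%) in replicate 1. Regions in all 3 lists with a neighbour within 200 nt followed the same order, with a lower share in each list. Of these regions, 5.38%, 1.15% and 0.502% had exactly the lowest score in replicates 3, 2 and 1. Scores under 1.5 times the lowest were held by 48.2%, 29.96% and 17.7% of them. At the other end, 107, 80 and 46 sites (35.1%, 26.2% and 15.1%) lay in the top 10% of replicates 1, 2 and 3. In all 3 lists, 41 sites (13.4%) did so. For regions in all 3 lists with a neighbour within 200 nt, the shares were 29.0%, 21.1% and 13.9%, and 8.96% (125 of 1395) in all 3. A high score in a single list went with presence in the others: 107 of the 118 isolated regions (90.7%) in the top 10% of replicate 1 were sites. For replicate 2 the count was 80 of 86 (93.0%) and for replicate 3 it was 46 of 48 (95.8%). Between percentiles 10 and 50 it was 43 of 744 (5.78%) in replicate 1, 72 of 495 (14.5%) in replicate 2 and 118 of 238 (49.6%) in replicate 3. This was not particular to isolated regions. Among regions with a neighbour within 200 nt, the share in all 3 lists was 93.5%, 97.7% and 98.0% in the top 10% of replicates 1, 2 and 3. Between percentiles 10 and 50 that share was 12.3%, 23.9% and 55.6%.

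Scores of the sites followed each other across libraries. Over the 305 sites, Spearman's rho of the scores was 0.71 between replicates 1 and 2 and 0.64 both between replicates 1 and 3 and between replicates 2 and 3. The points are sites within the same libraries and each had to pass the threshold of every list, so these values are a description without a p. Of the 30 highest-scoring sites in replicate 1, 27 were among the 30 highest in replicate 2 and 23 among the 30 highest in replicate 3. Between replicates 2 and 3 the overlap was 24 of 30, and 22 sites were among the first 30 in all 3 lists.

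Most of the first 20 sites were a single bin wide, as were most sites of any rank, and most lay far from other regions of their strand. Of the first 20 sites, 15 were a single bin wide, against 192 of all 305 sites (63.0%). The same start and end in all 3 lists were found for 19, against 208 of the 305. More than 10000 nt from the nearest region of their strand lay 15, against 136 of the 305. They fell on 11 chromosomes, with 4 on chromosome 17 and 3 each on chromosomes 4 and 18. The nearest neighbour of 8 of them was a region seen in 1 list only. The plot of the first 20 sites shows the gap between sites 1 and 2 and all others.

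**Figure D2:**
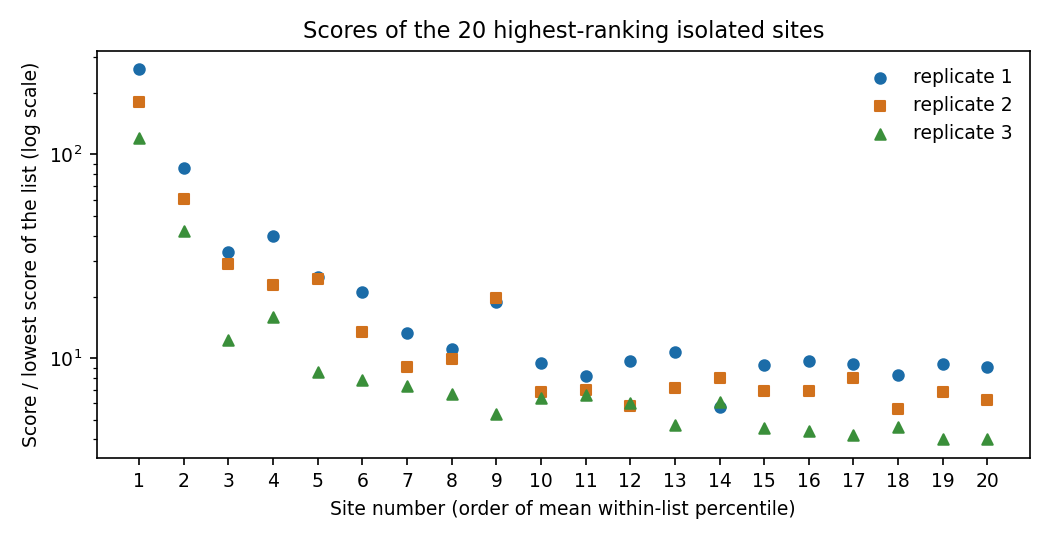
Score of the first 20 isolated sites divided by the lowest score of the list (vertical axis, log scale), by site number (horizontal axis), with a symbol for each replicate. Site 1 reaches 262, 180.5 and 120.5 times the lowest score in replicates 1, 2 and 3, and site 20 reaches 9.06, 6.23 and 4.0 times.

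Site 1 was chr4:77459781-77459880 on the plus strand, with 262, 180.5 and 120.5 times the lowest score of replicates 1, 2 and 3. Site 2 was chr4:77463041-77463100 on the minus strand, with 86.2, 60.7 and 42.1 times the lowest score. Both kept identical borders in the 3 lists, over 5 bins and 3 bins, and were thus wider than most strong sites. Each was the nearest opposite-strand region of the other, 3160 nt away. On their own strands the nearest regions lay 182560 nt from site 1 and 3774020 nt from site 2.

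Sites 3 to 6 were single bins with ranks between 4 and 14 in every list. Site 3 (chr4:66276201-66276220, plus strand) ranked 6, 4 and 7 in replicates 1, 2 and 3 and lay 73740 nt from its nearest same-strand region. Site 4 (chr13:91895901-91895920, plus) ranked 5, 8 and 6, with its nearest region 3695660 nt away. Site 5 (chr5:147634701-147634720, minus) ranked 7, 7 and 12, at a distance of 292520 nt. Site 6 (chr17:85278041-85278060, minus) ranked 9, 11 and 14, at 4604640 nt. For these 4 sites the percentile differed by at most 0.344 between lists.

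Sites 7, 11 and 17 were all single bins on the plus strand of chromosome 17. Site 7 (chr17:43944341-43944360) ranked 13, 14 and 17 in replicates 1, 2 and 3, and site 11 (chr17:44669501-44669520) ranked 36, 24 and 20. Their nearest regions lay 13300 and 22480 nt away and were seen in all 3 lists. Site 17 (chr17:16032201-16032220) scored 301, 207 and 84, ranked 24, 18 and 68, and stood 1572020 nt from its nearest region.

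Site 9 (chr8:85480281-85480340, minus strand) was the only one of the first 20 whose borders differed between lists. It ranked 10 and 9 in replicates 1 and 2 and 31 in replicate 3. Site 10 (chr7:99521361-99521400, plus) was 2 bins wide and ranked 23, 29 and 21, with 103360 nt to its nearest region. Site 12 (chr3:102594821-102594840, minus) ranked 21, 42 and 25 and was also among the 5 sites farthest from any neighbour, at 7974660 nt.

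The 3 sites of chromosome 18 were single bins. Site 13 (chr18:65612001-65612020, minus strand) ranked 16, 23 and 40 in replicates 1, 2 and 3, with 907360 nt to the nearest region. Site 15 (chr18:83126581-83126600, minus) scored 297, 180 and 91 and lay 3285560 nt from the nearest region. Site 16 (chr18:2099381-2099400, plus) scored 310, 180 and 88 with a neighbour only 220 nt away. Replicate 3 gave each of these 3 sites a lower rank than the other lists did.

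Among the first 20, sites 8, 14, 16 and 18 had a neighbour within 1000 nt. Site 8 (chr9:65291561-65291580, plus strand) ranked 15, 12 and 18 in replicates 1, 2 and 3 with a region seen in 2 lists 520 nt away. Site 14 (chr5:165994281-165994300, minus) scored 184, 207 and 122 and ranked 84, 18 and 24. It was the only one of the first 20 with its lowest percentile in replicate 1, at 98.5 against 99.6 and 99.1. Its neighbour, seen in 1 list, lay 240 nt away. Site 18 (chr7:140637421-140637440, minus) scored 264, 146 and 92, with a region seen in all 3 lists 680 nt away.

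Sites 19 and 20 closed the list. Site 19 (chr14:46643801-46643860, plus strand) was 3 bins wide with identical borders and scored 300, 177 and 80. Site 20 (chr1:141189101-141189120, plus) was a single bin and scored 290, 162 and 80. Their nearest regions lay 1200 and 97080 nt away.

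Isolated sites were narrower than clustered regions found in all 3 lists, of which there were 1395. After merging the lists, 192 of the 305 sites (63.0%, 95% Wilson interval 57.4 to 68.2) were 1 bin wide, 64 were 2 bins, 30 were 3 bins and 19 were wider. Of the clustered regions, 487 (34.9%, 32.5 to 37.5) were 1 bin wide. Within single lists, one peak of 1 bin stood at 66.9%, 72.5% and 85.6% of the sites in replicates 1, 2 and 3, which averaged 75% ± 9.6 (SD, n = 3). At the clustered regions it stood at 40.9%, 51.0% and 63.9%, which averaged 51.9% ± 11.5 (SD, n = 3). The difference was 26.0, 21.5 and 21.7 percentage points, higher for the sites in 3 of 3 libraries. Distance to neighbours divides the sites from the clustered regions and is part of the rule, so the contrast is a description.

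The difference in width was largest in the highest of 4 bands of score. Among regions with a mean percentile of at least 90, 36 of 53 sites were 1 bin wide (67.9%, 54.5 to 78.9), against 52 of 215 clustered regions (24.2%, 18.9 to 30.3). Below percentile 50 the shares were 66.3% (55 of 83) and 43.7% (136 of 311). In the strong group, single lists gave one 1-bin peak at 67.9%, 73.6% and 73.6% of the sites in replicates 1, 2 and 3 and at 27.9%, 29.3% and 37.7% of the clustered regions. The mean difference was 40.1 ± 4.2 percentage points (SD, n = 3), again as a description. The bands of score were chosen after the values were seen.

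**Figure D3:**
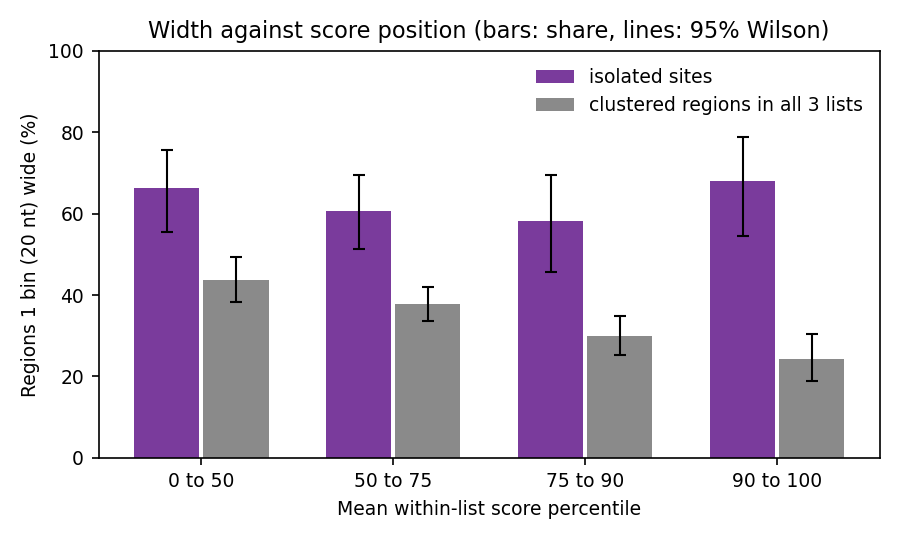
Share of regions that are 1 bin wide after merging (vertical axis, %, from 0) in 4 bands of the mean within-list score percentile (horizontal axis), for isolated sites and clustered regions in all 3 lists, with 95% Wilson intervals for counting error. The bars of the isolated sites stay between 58.1% and 67.9%, and those of the clustered regions go from 43.7% in the lowest band to 24.2% in the highest.

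The sites themselves did not divide by score into narrow and wide. The 192 sites of 1 bin had a median mean percentile of 64.1 and the 113 wider ones 65.2. In replicate 1 the narrow sites stood higher, at a median percentile of 85.5 against 75.8, and in replicate 3 they stood lower, at 51.1 against 59.0. The medians in replicate 2 were 72.5 and 70.9. The order of narrow and wide sites thus differed between the lists, and no test was run on it.

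The 5 widest sites spanned 120 to 220 nt, and each of them had unequal borders between lists. Site 46 (chr2:102687861-102688080, plus strand) covered 220 nt with scores of 127, 83 and 45 in replicates 1, 2 and 3. Replicate 2 divided it into 2 peaks. Site 35 (chr2:57862521-57862720, minus) covered 200 nt, scored 136, 87 and 81, and consisted of 2, 2 and 3 peaks in the lists. The others covered 120 nt each. Site 37 (chr18:65512061-65512180, plus) scored 131, 86 and 74, site 80 (chr19:31892681-31892800, plus) scored 94, 55 and 37, and site 142 (chr13:76368621-76368740, plus) scored 57, 48 and 28. Among the wider sites, only sites 35 and 46 exceeded 120 nt (0.656% of the 305 sites), whereas 96 of the 1395 clustered regions (6.88%) did.

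The same start and end were given by all 3 lists for 208 of the 305 sites (68.2%, 95% Wilson interval 62.8 to 73.2). Of the clustered regions, 586 (42.0%, 39.4 to 44.6) had identical borders. Since all lists use one grid, every site that is 1 bin wide after merging must have identical borders, and these make up 192 of the 208. Only the wider sites can show agreement of borders, and there it was rare: 16 of 113 (14.2%, 8.91 to 21.8). Among the wider clustered regions it was 99 of 908 (10.9%, 9.04 to 13.1), an interval that overlaps that of the sites. At a width of 2 bins the shares were 12 of 64 (18.8%) and 66 of 372 (17.7%). Over all scores, identical borders were thus not shown to be more frequent at isolated sites once single bins are set aside. At mean percentiles of at least 90, 44 of 53 sites had identical borders and 36 were 1 bin wide. Among clustered regions there, these counts were 87 and 52 of 215. In the other bands, from low to high, 57, 68 and 39 sites had identical borders and 55, 65 and 36 were 1 bin wide. The clustered counts were 142, 215 and 142 with identical borders, and 136, 191 and 108 of 1 bin. The bands were chosen after the values were seen. In the deposited order, all 208 sites with identical borders stand among the first 815 entries of the lists, which are the same in all 3, so the lists had been arranged jointly. The part of this joint handling in the agreement of borders was not tested.

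Pairs of libraries placed a site in exactly the same bins in 78.4% of cases for replicates 1 and 2 (239 of 305), 71.1% for replicates 1 and 3 (217) and 74.1% for replicates 2 and 3 (226). Of the 97 sites with unequal borders, 31 were equal in replicates 1 and 2 only, 18 in replicates 2 and 3 only and 9 in replicates 1 and 3 only. The remaining 39 differed in all 3 lists. In 14 of the 97 sites a list held several peaks, and 8 others had no stretch common to the 3 lists. The other 75 had a common stretch, which was a single bin in 66 of them.

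Around this common stretch, the extra bins were equally many in both directions along the RNA strand when summed over the lists. They numbered 75 upstream and 75 downstream, where a bin shared by several lists counts once for each. Extra bins lay only upstream in 31 sites, only downstream in 31 and on both sides in 13. Replicate 1 contributed 44 upstream and 40 downstream bins, replicate 2 contributed 22 and 29, and replicate 3 contributed 9 and 6. The surplus upstream was thus 4, -7 and 3 bins in replicates 1, 2 and 3, with no common direction, and a test over 3 libraries could not have passed a threshold of 0.05. In 55 of the 75 sites the lists differed by 1 bin in all.

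Libraries differed in how far their peaks reached. Replicate 3 alone had the narrowest peak at 38 of the 75 sites and was no wider than the common stretch at 62 of them. Replicate 1 alone had the widest peak at 31 sites and the narrowest at 0. The order of peak width was that of list length, and the part of list length in it was not tested.

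The distance to the nearest region of the same strand ranged over several orders of magnitude, from 220 to 8762480 nt with a median of 2480 nt. A neighbour lay within 1000 nt of 118 sites (38.7%), 51 sites had theirs at 1000 to 10000 nt, 30 at 10000 to 100000 nt, and 106 sites (34.8%) were more than 100000 nt from any other region of their strand. The scatter of distance and score shows most sites either within 1000 nt of a neighbour or beyond 100000 nt. Isolated regions seen in fewer lists were spread in a similar way, with a median of 1930 nt. The share of isolated regions present in all 3 lists was 14.4% (95% Wilson interval 12.1 to 16.9) in the nearest class and 15.0% (12.6 to 17.9) in the farthest.

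**Figure D4:**
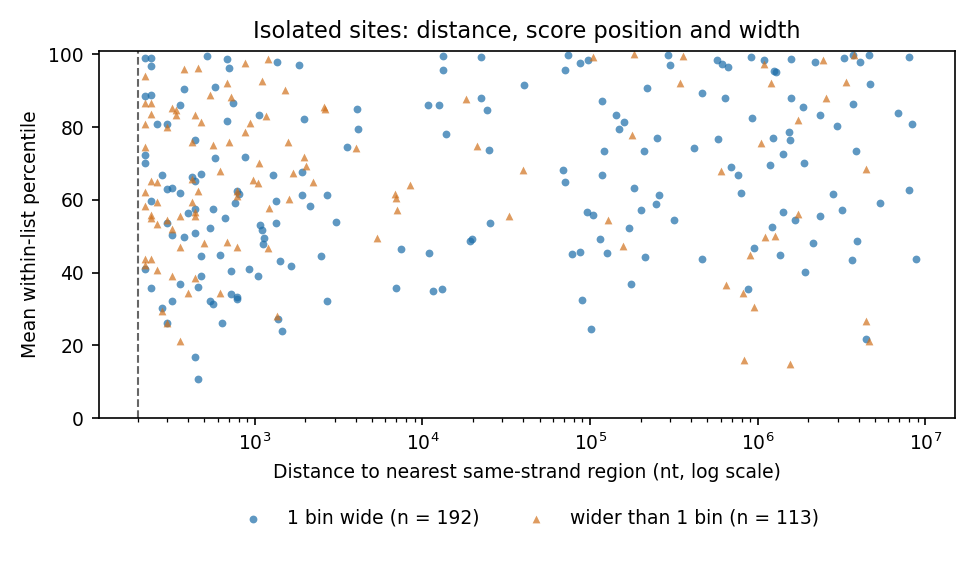
Mean within-list score percentile of each isolated site (vertical axis) against the distance to the nearest same-strand region (horizontal axis, nt, log scale), with separate symbols for the 192 sites of 1 bin and the 113 wider sites; the dashed line marks 200 nt. Sites beyond 10000 nt are mostly 1 bin wide (104 of 136), and sites up to 10000 nt are evenly mixed (88 of 169).

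Remote sites were more often a single bin and had higher median ranks than sites with a neighbour nearby. Beyond 10000 nt, 104 of 136 sites were 1 bin wide (76.5%, 68.7 to 82.8), against 88 of 169 nearer ones (52.1%, 44.6 to 59.5). In single lists one 1-bin peak stood at 79.4%, 86.0% and 87.5% of the remote sites in replicates 1, 2 and 3 and at 56.8%, 61.5% and 84.0% of the nearer sites. The difference was 22.6 and 24.5 percentage points in replicates 1 and 2 and 3.48 in replicate 3, a mean of 16.9 ± 11.6 (SD, n = 3). The median score of the remote sites was 82.5, 54 and 30 in replicates 1, 2 and 3, and that of the nearer sites was 64, 41 and 27. In percentiles, the remote sites stood higher by 12.9 ± 3.9 on average (SD, n = 3). Both differences had the same direction in 3 of 3 libraries. They are descriptions, since distance is part of the rule that chose the sites and the limit of 10000 nt was set after the values were seen.

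The 5 most remote sites were all single bins with identical borders. Site 253 (chr6:145131801-145131820, plus strand) had no same-strand region within 8762480 nt and scored only 53, 36 and 21 in replicates 1, 2 and 3. Site 97 (chr2:165683321-165683340, minus) scored 116, 41 and 42 at a distance of 8367160 nt. Site 161 (chr15:81445021-81445040, plus) scored 76, 64 and 21 at 8013140 nt. Site 12, given above, followed, and site 79 (chr1:61262501-61262520, minus) scored 84, 89 and 32 at 6852240 nt. Remoteness thus went with a high rank in site 12 but not in site 253.

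Neighbours within 1000 nt were mostly seen in a single list, as isolated regions were in general. Of the 118 sites with such a neighbour, 66 (55.9%) had one seen in 1 list, 33 in 2 lists and 19 (16.1%) in all 3. The share in all 3 lists was 15.0% over isolated regions and 24.6% over all nuclear regions. At the limit itself, the 24 sites whose neighbour was 220 to 240 nt away were 1 bin wide in 10 cases, with a median mean percentile of 71.2. The 24 regions in all 3 lists with a neighbour at 180 to 200 nt, just outside the rule, were 1 bin wide in 14 cases, with a median of 56.5.

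Single examples on either side of the limit overlapped in score. Just inside, site 165 (chr1:113268021-113268080, plus strand) scored 47, 49 and 28 in replicates 1, 2 and 3, site 95 (chr10:62634841-62634880, plus) scored 99, 46 and 37, and site 57 (chr13:94807741-94807760, minus) scored 98, 74 and 40. Just outside, the region chr1:245858061-245858080 (minus) scored 84, 43 and 25, chr13:52261621-52261660 (minus) scored 52, 29 and 23, and chr14:104339121-104339140 (minus) scored 146, 65 and 35.

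Few sites lay near another site. Within 10000 nt on the same strand, 37 of the 305 sites (12.1%) had another, in 15 pairs, 1 group of 3 and 1 group of 4. The group of 4 spanned 11460 nt on the plus strand of chromosome 11 (chr11:34639761-34651220) among 7 regions in all. From the first to the last position these were site 186, with scores of 61, 40 and 24 in replicates 1, 2 and 3, site 134 with 75, 38 and 31, site 58 with 127, 87 and 35, and site 53 with 113, 79 and 41. The group of 3 spanned 5320 nt on the minus strand of chromosome 1 (chr1:175883481-175888800) among 10 regions. It held site 115 with scores of 81, 51 and 29, site 26 with 261, 148 and 66, and site 291 with 36, 30 and 24. These 2 groups were named after their values had been seen.

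No site had a region on the opposite strand within 200 nt, nor did any of the 1395 clustered regions. Within 10000 nt, 8 sites (2.62%) had one. The sites divided almost evenly between the strands, with 154 on the plus strand (50.5%, 95% Wilson interval 44.9 to 56.1) and 151 on the minus strand.

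Sites were found on 21 chromosomes, from 35 on chromosome 1 to 5 on chromosome 12, and not on chromosome Y, where a single isolated region lay. Chromosome 1 held 11.5% of the sites (95% Wilson interval 8.37 to 15.5) and 9.32% of the clustered regions in all 3 lists. Chromosome 7 held 18 sites, or 5.90% (3.77 to 9.13), and 2.51% of the clustered regions (1.81 to 3.47), the only chromosome on which the intervals did not overlap. It also held 5.0% of all isolated regions, so its share of sites was near that of isolated regions of any kind. Chromosome 19 followed with 2.62% of sites (1.33 to 5.09) and 0.860% of clustered regions (0.493 to 1.5). Chromosome 2 went the other way, with 4.92% (3.0 to 7.95) and 8.75% (7.37 to 10.3). Intervals over 21 chromosomes were not adjusted for their number, and they treat regions as independent.

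**Figure D5:**
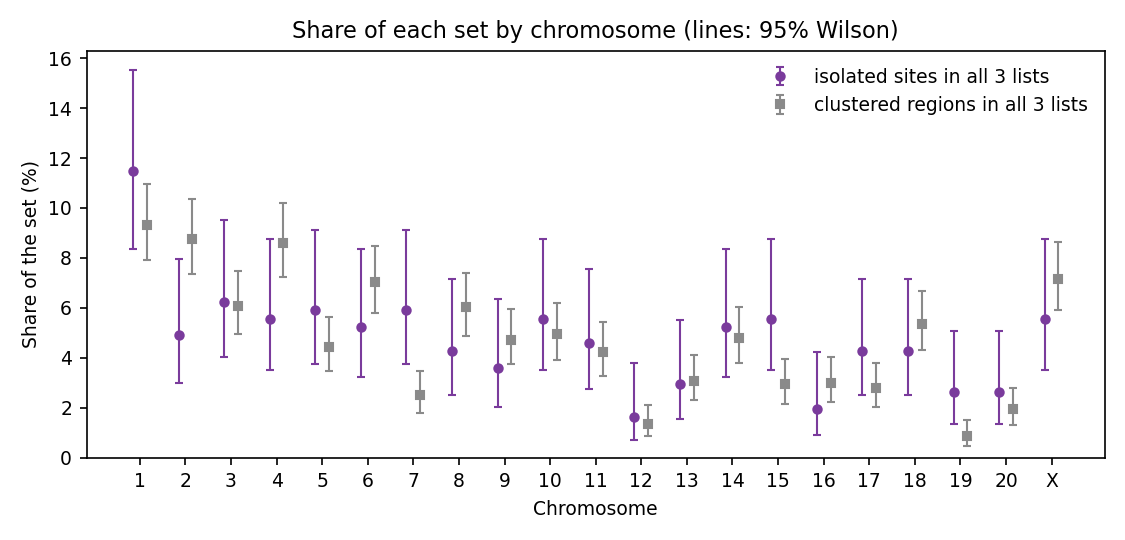
Share of the 305 isolated sites and of the 1395 clustered regions in all 3 lists (vertical axis, %) on each chromosome (horizontal axis), with 95% Wilson intervals. On chromosome 7 the isolated sites stand at 5.90% and the clustered regions at 2.51%, with intervals that do not overlap.

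Among isolated regions, the share present in all 3 lists was highest on chromosome 15, at 17 of 72 (23.6%), and on chromosome 11, at 14 of 65 (21.5%). It was lowest on chromosome 16, at 6 of 67 (8.96%), and on chromosome 2, at 15 of 161 (9.32%), leaving out chromosome Y. These shares stand against 15.0% over all isolated regions, and no test was run on them.

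Some sites ranked very differently in the 3 libraries. Site 171 (chr13:84985601-84985620, plus strand) scored 110 in replicate 1, 26 in replicate 2 and 45 in replicate 3, at percentiles 94.6, 3.59 and 86.2. Its replicate 2 score was the lowest of that list. Site 241 (chr17:45637781-45637800, minus) scored 33, 82 and 24, and was thus high in replicate 2 (percentile 93.9) and low in replicate 1 (7.97). Sites 217 (chr8:94448201-94448220, minus) and 244 (chr6:2880461-2880480, minus) fell from percentiles 92.4 and 90.6 in replicate 1 to 4.70 in replicate 3, with scores of 97, 39 and 20 and of 90, 33 and 20. Site 230 (chr16:90603061-90603080, plus) scored 110, 27 and 25. All 5 were single bins, which must have identical borders on the common grid. They were chosen for the largest range of percentile between lists, so they cannot show how borders and rank go together over all sites.

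The 5 sites with the lowest mean percentile were at or near the lowest score of replicates 2 and 3, and site 305 was near it in all 3 lists. Site 305 (chr14:42760921-42760940, minus strand) scored 33, 27 and 21 in replicates 1, 2 and 3, each 1 above the lowest score of its list. Site 304 (chr14:106061741-106061780, plus) scored 40, 26 and 20 and site 303 (chr12:19031401-19031460, plus) scored 39, 27 and 20. Site 302 (chr14:21070501-21070520, minus) scored 39, 26 and 21 and site 301 (chr16:67598021-67598060, plus) scored 39, 28 and 21. Of these 5 sites, 3 were on chromosome 14, and sites 303 and 304 were more than 100000 nt from their nearest region. With scores of at least 1.5 times the lowest of each list, 208 isolated sites were found, with isolation judged among the fewer peaks that then remain.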

How the data were processed

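Peak lists of 3 SYNCRIP iCLIP libraries were used, each from its own library; the 3 IgG libraries were not analysed here. Per the submitters' processing notes, reads were handled with STAR and build rn6, and the names of the deposited lists give Piranha with bins of 20 nt. The sources used here do not give the threshold, the handling of duplicates or any use of IgG. The authors' deposited score per peak is a whole number of unstated scaling and was used within lists only.

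One entry whose end preceded its start and the 91, 84 and 74 mitochondrial peaks were left out. Overlapping same-strand peaks were merged. Where a list had several peaks in a region, the highest score was taken. Percentiles were taken over all valid peaks of a list, mitochondrial ones included, with ties at the middle of their ranks. Python 3.11.15, numpy 2.4.6, scipy 1.17.1 and matplotlib 3.10.9 were used. The region code was tested on simulated data.

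Depth is unknown, so the 95% Wilson intervals cover counting error over peaks or regions only. Exact sign-flip tests over the libraries had been planned for peak width and for the direction of extra bins. No p is reported from them: distance, part of the rule for the sites, sets the first contrast, and 3 libraries cannot pass a threshold of 0.05. Alternatives were each replicate left out, other isolation distances, a stricter score, touching peaks merged, isolation on both strands, equal list lengths, a stricter overlap and mitochondrial peaks kept.

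Sites named are the 20 with the highest and the 5 with the lowest mean percentile, the 5 with the largest range between lists, the 5 widest, the 5 most remote, and 3 on either side of the 200-nt limit. The sites and these rules were chosen with earlier results of these data known.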

Additional observations from a re-analysis of the deposited data

How the results depend on the processing

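Instead of 305 isolated sites there were 707 when replicate 3 was left out and only the other lists had to share a site. Without replicate 1 there were 436 and without replicate 2 there were 431, both within 1.5 times the reported count. Isolation over 1000 nt gave 187. Identical borders, at 68.2% as reported, were given for 75.2% to 82.2% of sites with 1 replicate left out, where fewer lists have to agree, for 75.6% with isolation over 500 nt and 76.5% over 1000 nt, and for 61.4% with touching peaks merged. When scores under 1.5 times the lowest of the list were removed, identical borders fell to 58.7%, the mean share of sites with one 1-bin peak was 59.5% against 75%, and the median of the mean percentile was 86.9 against 65.0, since low scores are removed by construction; the cause of the other changes was not tested. Of the 46 alternative values, 35 stayed within 1.5 times the count, the spread between libraries or the counting interval of the reported value. The counts without replicate 1 or replicate 2 are among these 35. Isolation on both strands gave the same 305 sites, an overlap of at least 50% of the longer peak left 267, and keeping mitochondrial peaks, an alternative added after the data were seen, gave 307. Lists cut to equal length gave 349 sites, with identical borders at 65.0% and a mean 1-bin share of 70.4%. Their median of the mean percentile was 73.6 against 65.0, a change smaller than the spread between libraries. No paired analysis was possible because only SYNCRIP and IgG samples share replicate numbers, and IgG was not analysed here. With depth unknown, the absence of a peak does not show absence of binding.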
